A study of Homo sapiens with 18 samples.

Results

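The knockdown of RNF213 in the human cholangiocarcinoma line KKU-100 was described across all genes in 6 of the 18 libraries of the series, taken by the line and hairpin named in their titles. The shRNF213#2 group, called shRNF213 here and labelled as RNF213 knockdown, held 3 libraries, and the shControl group, labelled as WT for RNF213, held 3 libraries. Both groups were stable lentiviral lines that carried a short hairpin RNA, grown in Ham's F12 medium with 10% fetal bovine serum. The other 12 libraries came from HuCCT1 and YSCCC cells, grown in RPMI-1640 medium, with 3 libraries per hairpin and line. The knockdown rests on 1 hairpin against RNF213, and the labels do not say whether each stable line was a pool or a clone. The series' design text calls the libraries biological replicates without naming separate cultures, so the p-values measure spread among these libraries alone. The fits below pair libraries by replicate number, so that spread is of the differences within pairs. The comparison asks which transcripts differ with the hairpin, and the series title places RNF213 in the context of local invasion.

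RNF213 encodes a very large cytosolic E3 ubiquitin ligase built around a ring of ATPase modules. Interferons raise its transcript, the protein coats intracellular bacteria and lipid droplets, and inherited variants of the gene predispose to moyamoya disease of the brain arteries. Cholangiocarcinoma arises from the epithelium of the bile ducts, in which keratins 7 and 19 and the adhesion protein EPCAM are usual markers.

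KKU-100 libraries held some biliary markers, KRT7 among them, and lacked others, KRT19 and EPCAM among them. In CPM (counts scaled to library size) on 1 scale over all 18 libraries, KRT7 ran from 75.3 to 189.6 CPM, KRT8 from 431 to 681 CPM, KRT18 from 222 to 385 CPM and SOX9 from 145 to 295 CPM in KKU-100. SPP1 ran from 158 to 588 CPM and ANXA4 from 55.4 to 75.3 CPM. KRT19 lay between 0 and 0.181 CPM in KKU-100, against 1509 to 2463 CPM in HuCCT1 and 388 to 1150 CPM in YSCCC. EPCAM lay between 0 and 0.134 CPM in KKU-100, against 318 to 440 CPM in HuCCT1 and 178 to 335 CPM in YSCCC. The E-cadherin gene CDH1 did not pass 4.85 CPM in any KKU-100 library. The cells are therefore called KKU-100 throughout. On the scale of the 6 KKU-100 libraries, the leukocyte gene PTPRC, the endothelial genes CDH5 and VWF and the hepatocyte gene ALB stayed at or below 0.341 CPM in each library. The summed hepatocyte markers came to 20.7, 22.3 and 22.3 CPM with shRNF213, against 9.86, 28.6 and 15.9 CPM with shControl, and were mostly SERPINA1. Leukocyte markers, mostly CD68, came to 80.1, 51.0 and 67.0 CPM, against 114, 54.8 and 78.7 CPM, and endothelial markers to 4.25, 4.90 and 6.35 CPM, against 2.33, 3.91 and 6.01 CPM. None of the tested members of these 3 lists was called (0 of 3, 0 of 2 and 0 of 1). The summed fibroblast markers (0 of 7 called) came to 51.7, 22.2 and 42.1 CPM with shRNF213, against 24.2, 29.5 and 20.6 CPM with shControl, and COL1A1 stayed at or below 2.21 CPM in each library.

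Library totals were 23056006, 25502097 and 23050196 counts with shRNF213, against 21056732, 22201392 and 21366955 counts with shControl. Of 36601 gene IDs in the files, 10443 had 0 counts in all KKU-100 libraries, and 14915 passed the filter on low counts and were tested. The libraries stood apart in growth genes, though not by replicate number alone. The proliferation marker MKI67 measured 119.8, 5.79 and 98.6 CPM with shRNF213, against 95.3, 4.04 and 14.8 CPM with shControl. It was thus low in both libraries of replicate 2 and in shControl 3, and high in the other 3, so the libraries of replicate 3 differed in it while those of replicate 2 were both low. The summed interferon-stimulated transcripts and CCL5 were highest in shControl 1. The labels do not say whether libraries of the same replicate number were cultured together. They were treated as pairs after a check in these same libraries, which is given with the processing. Each result below comes from a fit with the replicate number as a block.

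RNF213 itself (chromosome 17, positions 80260866 to 80398786, plus strand, GRCh38) fell to 537, 633 and 534 CPM in the shRNF213 libraries of replicates 1 to 3, against 1206, 964 and 1184 CPM in shControl. Each shRNF213 library lay below each shControl library. The remaining level was 44.6%, 65.6% and 45.1% of shControl in replicates 1, 2 and 3, so the knockdown was partial and was weakest in replicate 2. By edgeR's quasi-likelihood test with Benjamini-Hochberg adjustment over all genes tested, the change was log2 fold change -0.97, SE 0.15, adjusted p = 0.0462. A transcript of the opposite strand, RNF213-AS1, measured 2.21, 3.58 and 3.84 CPM with shRNF213, against 4.01, 2.75 and 5.87 CPM with shControl, and the groups overlapped. No source used here states whether the counting used strand, so reads of the gene and its antisense partner cannot be told apart. The RNF213 call was lost without replicate 1 (log2 fold change -0.87, adjusted p = 0.0663) and without replicate 3 (-0.89, adjusted p = 0.251), and it stayed without replicate 2 (-1.15, adjusted p = 0.00566).

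**Figure D1:**
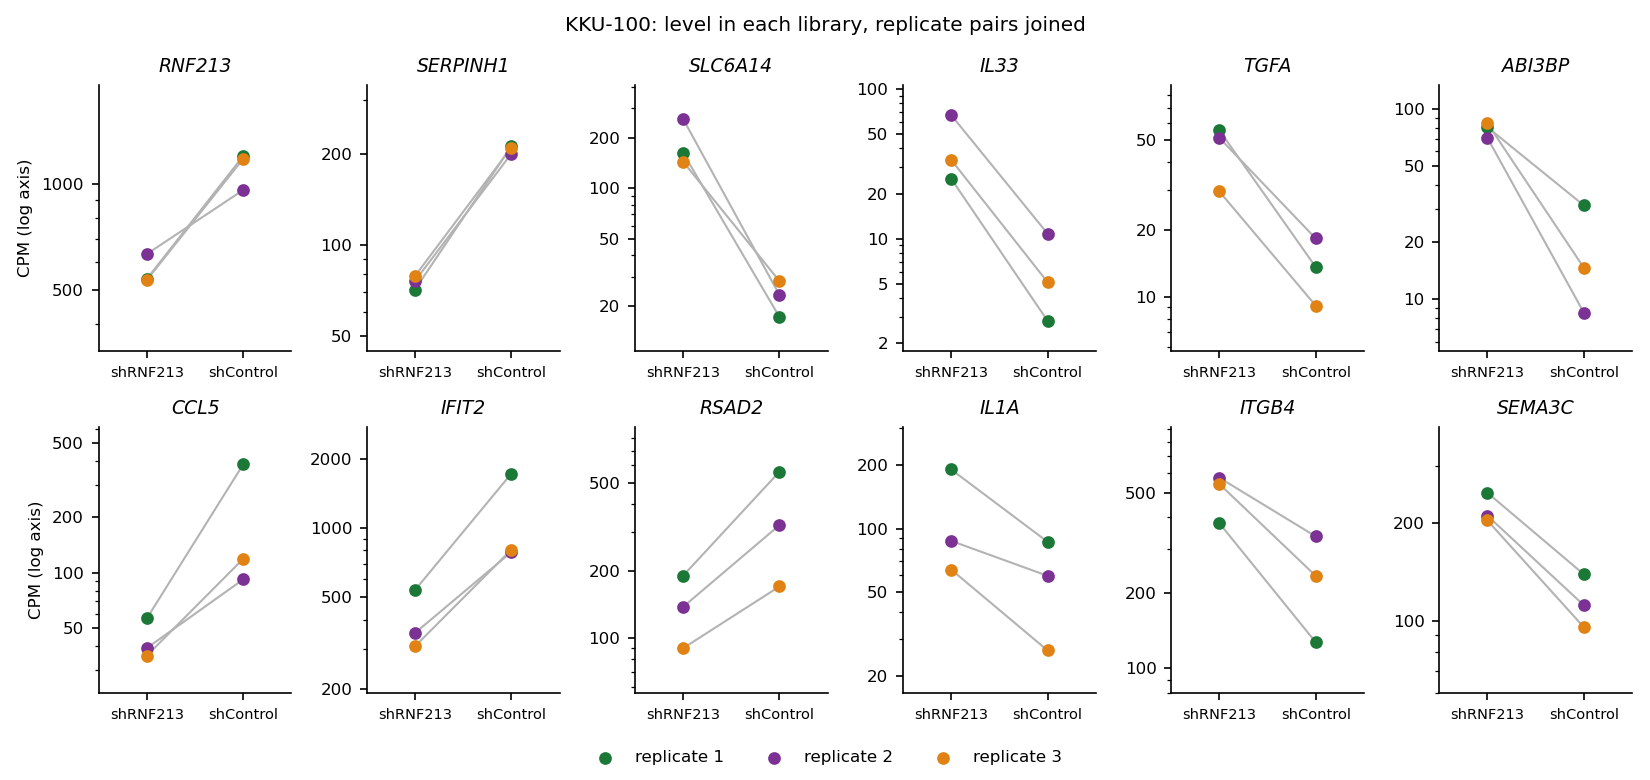
Level of 12 genes in each KKU-100 library in CPM on log axes, with shRNF213 on the left, shControl on the right and the libraries of a replicate joined by a line. The shRNF213 libraries sit below shControl in every pair for RNF213, SERPINH1, CCL5, IFIT2 and RSAD2, and above it in every pair for SLC6A14, IL33, TGFA, ABI3BP, IL1A, ITGB4 and SEMA3C.

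Across the transcriptome a small set of genes changed, from RNF213 and antiviral genes on the lower side to SLC6A14, IL33 and TGFA on the higher side. At an adjusted p below 0.05, 66 of 14915 genes changed (0.443%), 45 of them higher (0.302%) and 21 lower (0.141%) with shRNF213. The 2 groups did not overlap in 53 of the 66 genes, and over all genes tested they did not overlap upward in 858 (5.75%) and downward in 1023 (6.86%). All 66 moved the same way in the 3 pairs, as did 39.6% of all genes tested. The smallest change among them was 0.67 on the log2 scale, 44 changed by at least 1, and 62 are protein coding. The median log2 fold change of all genes tested was 0.000172, which the TMM scaling sets near 0, with 7461 genes positive and 7454 negative. Counts of called list members below stand beside those shares of 0.302% higher and 0.141% lower. In bulk RNA, fewer cells expressing a gene and less RNA per cell cannot be told apart.

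The pairs differed in size. The median log2 ratio of the 45 higher genes was 1.53, 1.25 and 1.31 in replicates 1, 2 and 3, and that of the 21 lower genes was -1.27, -1.05 and -1.01. Replicate 2 gave the smallest ratio for 32 of the 66 genes, RNF213 among them, against 17 in replicate 1 and 17 in replicate 3. Over all genes tested the median absolute log2 ratio was also smallest in replicate 2, at 0.213, against 0.274 in replicate 1 and 0.234 in replicate 3. The count of calls rests on the pairing and on single replicates: it was 2 without the block (0.0134%), 75 without replicate 1, 420 without replicate 2 and 9 without replicate 3. SERPINH1 and SLC6A14 were the 2 genes called without the block (adjusted p = 0.0227 each). An unadjusted p under 0.05 was found for 966 genes without the block (6.48%) and 2391 genes with it (16%). AOX1, IL33, NR4A3, RTN1, SERPINH1, SLC6A14 and TGFA were called whichever replicate was left out.

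**Figure D2:**
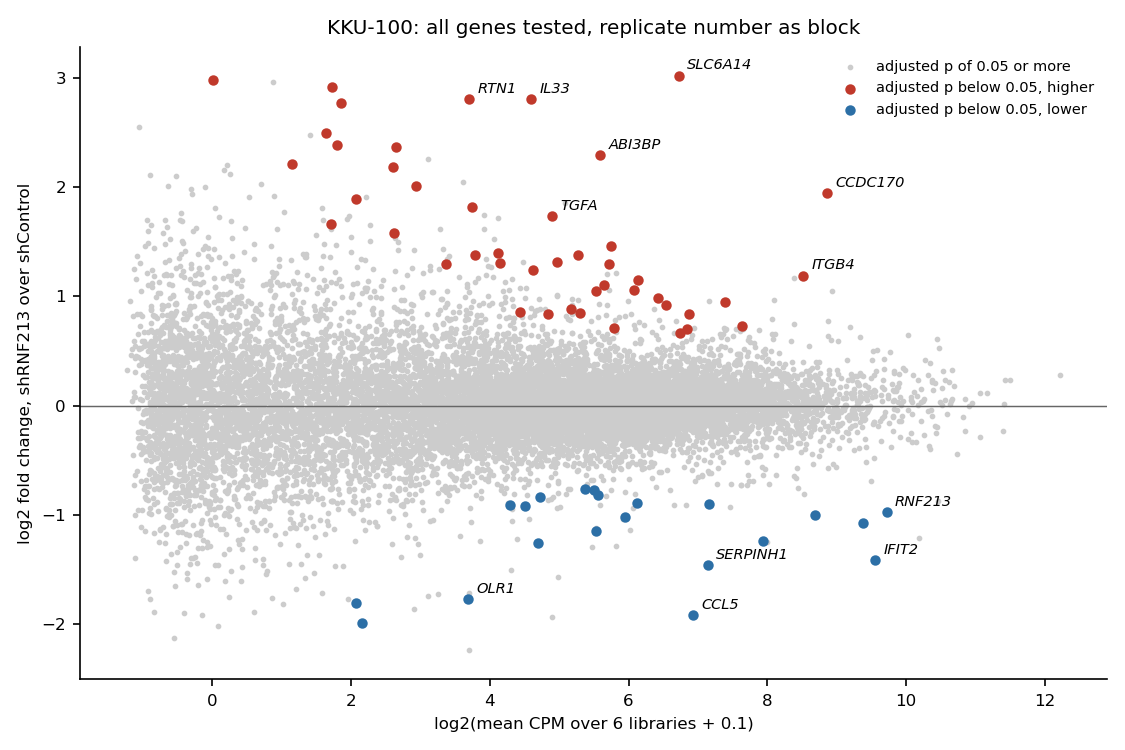
Log2 fold change of shRNF213 over shControl against log2 of the mean CPM plus 0.1 for the 14915 genes tested in KKU-100, with 45 called higher genes and 21 called lower genes in colour. Called higher genes reach 3.02 (SLC6A14) and called lower genes reach -1.99, and RNF213, IFIT2 and SERPINH1 stand among the abundant ones.

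**Figure D3:**
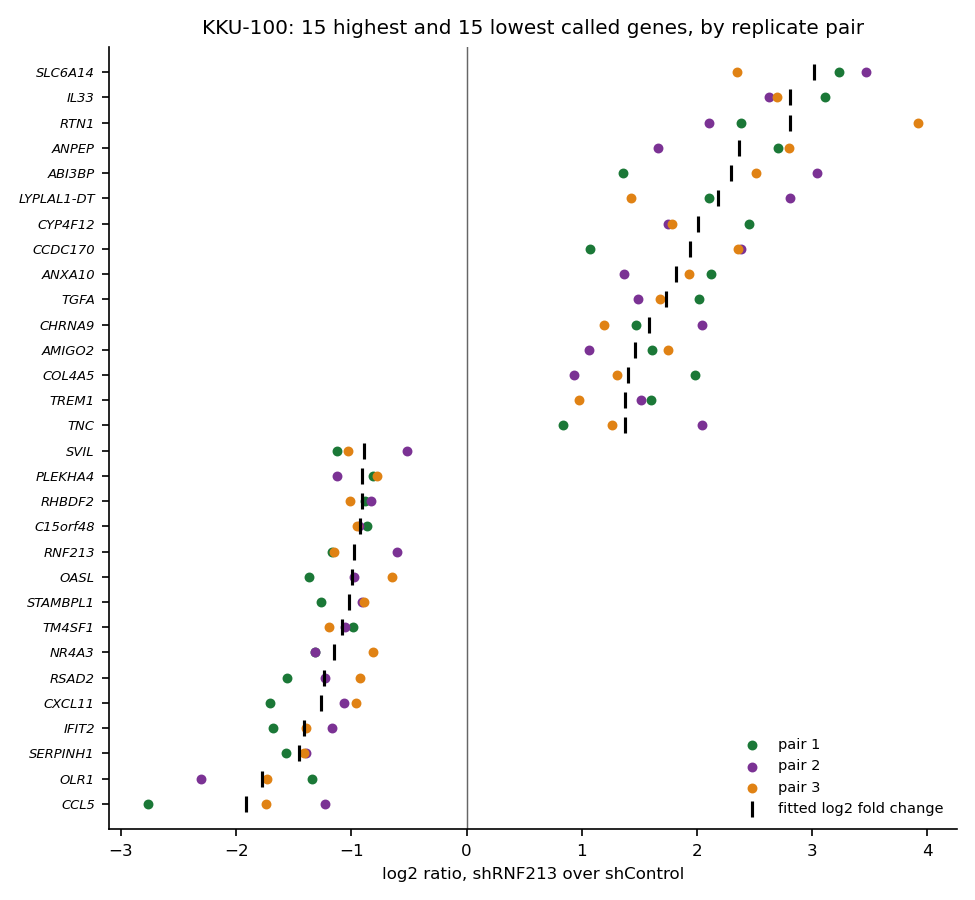
Log2 ratio of shRNF213 over shControl in each replicate pair (points) and fitted log2 fold change (bars) for the 15 highest and 15 lowest called KKU-100 genes averaging 5 CPM or more, ordered by size. Every point lies on the same side of 0 as its fitted value, since the same sign in all pairs was a condition of the choice. Fitted values run from SLC6A14 at 3.02 to CCL5 at -1.91.

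The genes that fell included antiviral effectors and chemokines. IFIT2, an interferon-induced protein that binds viral RNA, measured 538, 350.2 and 307 CPM in the shRNF213 libraries, against 1722, 787 and 805 CPM in the shControl libraries. RSAD2, which encodes the antiviral enzyme viperin, measured 190.2, 138 and 89.5 CPM in the shRNF213 libraries, against 562, 322 and 170.1 CPM in the shControl libraries. IFIT2 was lower in each shRNF213 library than in any shControl library, whereas RSAD2 overlapped because shRNF213 1 exceeded shControl 3. The fits gave IFIT2 log2 fold change -1.41, SE 0.14, adjusted p = 0.0225, and RSAD2 log2 fold change -1.24, SE 0.14, adjusted p = 0.0248. CXCL11, a ligand of the receptor CXCR3, measured 21.2, 12.3 and 8.74 CPM in the shRNF213 libraries, against 69.5, 25.8 and 17.04 CPM in the shControl libraries. OASL, a relative of the oligoadenylate synthetases that boosts RNA sensing, measured 349, 208 and 241 CPM in the shRNF213 libraries, against 898, 409.6 and 378 CPM in the shControl libraries. CXCL11 overlapped between the groups and OASL did not, and both were far higher in shControl 1 than in the other libraries. Their changes were -1.26, adjusted p = 0.0345 for CXCL11 and -0.996, adjusted p = 0.0462 for OASL.

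Those 4 were the called members of 42 tested interferon-stimulated genes, all lower, beside 0.141% of all genes tested. The other 38 did not pass, although the list leaned one way: 38 of 42 members had a negative log2 fold change and the median was -0.23, against 0.000172 over all genes. Its summed level was 15716, 13225 and 13396 CPM with shRNF213, against 21637, 16049 and 15421 CPM with shControl. The sums overlapped, since shRNF213 1 lay above shControl 3, but within each replicate the shRNF213 sum was the lower one. The median log2 ratio of the list was -0.37, -0.27 and -0.13 in replicates 1, 2 and 3. Just outside the threshold stood CXCL10, a CXCR3 ligand (-1.36, adjusted p = 0.0608), IFIT3 (-0.68, adjusted p = 0.0858) and the RNA sensor gene IFIH1 (-0.64, adjusted p = 0.0975). ISG15, the ubiquitin-like modifier that interferon induces, measured 1101, 709 and 995 CPM with shRNF213, against 1440.5, 1027 and 993 CPM with shControl, and its groups overlapped.

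Interferon transcripts themselves were scarce outside shControl 1. The type III interferon gene IFNL1 measured 8.04, 2.06 and 2.98 CPM with shRNF213, against 53.6, 5.33 and 5.26 CPM with shControl, and IFNB1 measured 2.03, 0.583 and 0.980 CPM with shRNF213, against 14.2, 1.33 and 0.792 CPM with shControl. Both were highest in shControl 1, IFNB1 was slightly higher with shRNF213 in replicate 3, and neither passed (-1.72, adjusted p = 0.0963 for IFNL1 and -1.47, adjusted p = 0.258 for IFNB1). None of the 22 tested genes of interferons, their receptors and double-stranded RNA sensing was called, and their median was -0.08, with IFNL2 second by p (-1.45, adjusted p = 0.157). Without replicate 1 the calls of IFIT2, RSAD2 and CCL5 stayed while those of CXCL11 and OASL were lost, and without replicate 3 none of these 5 was called.

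CCL5, a chemokine for T cells and monocytes (chromosome 17, positions 35871491 to 35880793, minus strand), measured 56.7, 39.2 and 35.7 CPM in the shRNF213 libraries, against 386, 92.1 and 119 CPM in the shControl libraries. Every shRNF213 library was below every shControl library, and shControl 1 held more than the other 2 shControl libraries together. The change was log2 fold change -1.91, SE 0.26, adjusted p = 0.0323. CCL5 was the called member of 8 tested chemokine genes, whose median was -0.06. CXCL8, which attracts neutrophils, measured 1047, 526 and 441 CPM with shRNF213, against 785, 533 and 529.5 CPM with shControl, overlapped between the groups and did not pass (0.04, adjusted p = 0.917).

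Of the NF-kappaB pathway genes, 2 fell. STAMBPL1, a deubiquitinase of lysine-63 chains, measured 43.6, 36.7 and 40.2 CPM in the shRNF213 libraries, against 105, 68.7 and 74.6 CPM in the shControl libraries. C15orf48, which encodes a small mitochondrial protein, measured 15.95, 12.9 and 17.98 CPM in the shRNF213 libraries, against 29.1, 24.9 and 34.8 CPM in the shControl libraries. The groups were separate for both genes, and the changes were -1.02, adjusted p = 0.0248 for STAMBPL1 and -0.92, adjusted p = 0.0397 for C15orf48. They were the called members of 33 tested genes of the NF-kappaB list, beside 0.141% lower over all genes; 29 of the 33 had a negative log2 fold change, against 7454 of 14915 over all genes, with a median of -0.18. TNFAIP3, the feedback inhibitor A20, measured 164, 204 and 74.9 CPM with shRNF213, against 338, 290.0 and 115 CPM with shControl and did not pass (-0.72, adjusted p = 0.0759), and BIRC3, an inhibitor of apoptosis, measured 220.0, 223 and 147 CPM with shRNF213, against 425, 252 and 298 CPM with shControl and did not pass (-0.72, adjusted p = 0.131). SOCS2, a suppressor of cytokine signalling, fell (-0.77, adjusted p = 0.0462) as the called member of 21 tested IL-6, STAT3 and SOCS genes, and STAMBPL1 and RNF213 were the called members of 28 tested ubiquitin and autophagy genes.

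In contrast to these cytokine targets, 2 cytokines of the interleukin-1 family rose. IL33, an alarmin that is stored in the nucleus and released from damaged epithelium (chromosome 9, positions 6215786 to 6257983, plus strand), measured 25.1, 66.9 and 33.6 CPM in the shRNF213 libraries, against 2.83, 10.8 and 5.12 CPM in the shControl libraries. Each shRNF213 library was above each shControl library, and the replicates kept the same order in both groups, with replicate 2 highest and replicate 1 lowest. The change was log2 fold change 2.81, SE 0.16, adjusted p = 0.00153, the lowest adjusted p of the 66. IL1A, an alarmin that signals through the interleukin-1 receptor, measured 191, 87.5 and 63.9 CPM in the shRNF213 libraries, against 86.6, 59.7 and 26.4 CPM in the shControl libraries. Its groups overlapped because shRNF213 3 lay below shControl 1, and the change was 0.99, adjusted p = 0.0462. IL1B measured 18.5, 27.1 and 7.54 CPM with shRNF213, against 5.70, 10.1 and 6.80 CPM with shControl, was higher with shRNF213 in every pair and did not pass (1.11, adjusted p = 0.15). The IL-33 receptor gene IL1RL1 measured 34.5, 62.4 and 13.2 CPM with shRNF213, against 80.8, 51.6 and 13.04 CPM with shControl, with no common direction (-0.32, adjusted p = 0.595). Of 17 tested members of the interleukin-1 family and its receptors, 2 were higher and 0 lower, beside 0.302% higher over all genes, and the median was -0.05.

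TGFA, a ligand of the epidermal growth factor receptor (chromosome 2, positions 70447284 to 70554193, minus strand), measured 55.5, 51.4 and 29.6 CPM in the shRNF213 libraries, against 13.6, 18.3 and 9.17 CPM in the shControl libraries. The lowest shRNF213 library was above the highest shControl library, and the change was log2 fold change 1.73, SE 0.15, adjusted p = 0.00771. On the length-scaled TPM of the files, TGFA averaged 25.5 TPM with shRNF213, against 7.76 TPM with shControl. More abundant ligands of the family did not pass: EPGN averaged 211 TPM with shRNF213, against 169 TPM with shControl (0.45, adjusted p = 0.269), and EREG averaged 197 TPM, against 164 TPM (0.23, adjusted p = 0.385). TGFA was the called member of 18 tested genes of the family, whose median was 0.10. RHBDF2, which encodes iRhom2, a carrier of the ligand-shedding protease ADAM17, measured 13.02, 15.05 and 12.7 CPM in the shRNF213 libraries, against 24.1, 26.8 and 25.6 CPM in the shControl libraries, without overlap (-0.91, adjusted p = 0.0462), while ADAM17 was at 0.12, adjusted p = 0.651. None of the 24 ERK output and feedback genes was called, with a median of 0.05, and FOSB (0.62, adjusted p = 0.139) and ETV1 (0.61, adjusted p = 0.168) had the lowest p.

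Of the genes that act on collagen, SERPINH1 fell and the other tested members did not pass. SERPINH1 encodes HSP47, the endoplasmic reticulum chaperone of procollagen (chromosome 11, positions 75562056 to 75572783, plus strand). It measured 71.2, 76.0 and 78.9 CPM in the shRNF213 libraries, against 211, 199.9 and 209 CPM in the shControl libraries, and each group was narrow and apart from the other. The change was log2 fold change -1.46, SE 0.11, adjusted p = 0.00445. It was the called member of 29 tested collagen-modifying enzymes and chaperones, whose median was -0.04, with 14 positive and 15 negative. None of the 24 chaperones and folding enzymes of the endoplasmic reticulum list was called, and their median was 0.04; the lowest p belonged to the disulfide isomerase P4HB (0.42, adjusted p = 0.241) and HERPUD1 (0.28, adjusted p = 0.311). The log2 ratios of SERPINH1 in replicates 1, 2 and 3 were -1.57, -1.39 and -1.41.

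Matrix proteins rose in 3 cases. ABI3BP, a secreted matrix protein, measured 80.3, 70.6 and 84.2 CPM in the shRNF213 libraries, against 31.2, 8.52 and 14.7 CPM in the shControl libraries. TNC, the adhesion-modulating glycoprotein tenascin-C, measured 63.6, 65.0 and 35.9 CPM in the shRNF213 libraries, against 35.6, 15.7 and 14.9 CPM in the shControl libraries. COL4A5, a chain of basement membrane collagen, measured 23.2, 29.6 and 21.5 CPM in the shRNF213 libraries, against 5.80, 15.5 and 8.61 CPM in the shControl libraries. In all 3 genes the lowest shRNF213 value exceeded the highest shControl value, by the narrowest margin in TNC. The changes were 2.29, adjusted p = 0.0248 for ABI3BP, 1.38, adjusted p = 0.0462 for TNC and 1.40, adjusted p = 0.0462 for COL4A5. These were 3 higher and 0 lower of 43 tested collagen and matrix genes, beside 0.302% higher and 0.141% lower over all genes, and the list had a median of 0.02. COL5A2, a fibrillar collagen chain, measured 486, 198 and 421 CPM with shRNF213, against 182, 137 and 219 CPM with shControl and did not pass (0.97, adjusted p = 0.0634). COL3A1 measured 32.3, 9.29 and 28.5 CPM with shRNF213, against 5.25, 7.91 and 7.26 CPM with shControl, higher in replicates 1 and 3 and near shControl in replicate 2 (1.62, adjusted p = 0.136). It is also in the fibroblast list, where ACTA2 ran from 6.24 to 15.3 CPM and COL1A1 and COL1A2 stayed at or below 4.60 CPM, and the part of other cells in it was not tested.

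An integrin subunit, a semaphorin and a semaphorin receptor also rose. ITGB4, the integrin subunit of hemidesmosomes that binds laminin, measured 379, 575 and 543 CPM in the shRNF213 libraries, against 127, 336 and 234 CPM in the shControl libraries. The groups did not overlap, and the change was log2 fold change 1.19, SE 0.16, adjusted p = 0.0332. It was the called member of 24 tested integrin and laminin genes, 17 of which were positive, with a median of 0.27. The median log2 ratio of the list was 0.43, 0.28 and 0.09 in replicates 1, 2 and 3. Its summed level was 7829, 8471 and 7562 CPM with shRNF213, against 6023, 6849 and 8223 CPM with shControl, so replicate 3 went the other way. The partner subunit of ITGB4, ITGA6, measured 189, 155 and 118 CPM with shRNF213, against 90.2, 138 and 88.4 CPM with shControl and did not pass (0.55, adjusted p = 0.199). SEMA3C, a secreted semaphorin, measured 248, 210.4 and 203 CPM in the shRNF213 libraries, against 139, 112 and 95.4 CPM in the shControl libraries, with separate groups. NRP1, a co-receptor of class 3 semaphorins and VEGF, measured 124, 176 and 67.9 CPM in the shRNF213 libraries, against 60.6, 90.8 and 39.5 CPM in the shControl libraries, and was higher in each pair although the groups overlapped. The changes were 0.95, adjusted p = 0.0248 for SEMA3C and 0.92, adjusted p = 0.0248 for NRP1, the 2 called members of 25 tested semaphorin, neuropilin and plexin genes, whose median was 0.13.

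Of 34 tested matrix proteases and inhibitors, 1 was called. ANPEP, the surface aminopeptidase N, measured 5.65, 16.4 and 7.97 CPM in the shRNF213 libraries, against 0.793, 5.12 and 1.07 CPM in the shControl libraries. The groups were separate, though shControl 2 came close to shRNF213 1, and the change was log2 fold change 2.36, SE 0.29, adjusted p = 0.0248. PLAU, the urokinase gene, measured 53.8, 58.7 and 42.3 CPM with shRNF213, against 7.19, 28.8 and 12.4 CPM with shControl, without overlap, and stood just outside the threshold (1.86, adjusted p = 0.055). MMP2, a gelatinase, measured 18.8, 14.2 and 24.6 CPM with shRNF213, against 1.73, 8.69 and 5.12 CPM with shControl, without overlap (2.05, adjusted p = 0.107), and TIMP3, a tissue inhibitor of metalloproteinases, measured 479.7, 1212 and 556 CPM with shRNF213, against 1428, 1650.4 and 1683 CPM with shControl, without overlap (-1.21, adjusted p = 0.0797). The median of the list was 0.09, with 20 positive and 14 negative members. In these genes replicate 2 gave the smallest difference.

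The largest fold change of the comparison was that of SLC6A14, a transporter of neutral and basic amino acids (chromosome X, positions 116436606 to 116461458, plus strand). It measured 162, 258 and 144 CPM in the shRNF213 libraries, against 17.2, 23.3 and 28.2 CPM in the shControl libraries. Every shRNF213 library held at least 5 times the level of its shControl partner, and the change was log2 fold change 3.02, SE 0.21, adjusted p = 0.00404. SLC6A14 was the called member of 22 tested amino acid transporters, whose median was 0.0022. SLC7A11, the cystine transporter, measured 869.8, 643 and 669 CPM with shRNF213, against 514, 347 and 465 CPM with shControl, without overlap (0.72, adjusted p = 0.0634), and the abundant leucine transporter SLC7A5 measured 2947, 2176 and 2309 CPM with shRNF213, against 3651, 2394 and 2722 CPM with shControl (-0.23, adjusted p = 0.43). ANXA10, an annexin of gastric-type epithelium, measured 33.8, 17.03 and 11.9 CPM in the shRNF213 libraries, against 7.68, 6.54 and 3.07 CPM in the shControl libraries, without overlap (1.82, adjusted p = 0.0248). With SLC6A14 it made 2 called of 12 tested mucin and gastric-type genes, with a median of 0.31.

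Other named genes that rose came from separate pathways. CCDC170, a protein tied to microtubules, measured 611, 892 and 695 CPM in the shRNF213 libraries, against 291, 171 and 135 CPM in the shControl libraries. RTN1, a reticulon of the endoplasmic reticulum that is abundant in neuroendocrine cells, measured 16.9, 17.1 and 34.4 CPM in the shRNF213 libraries, against 3.17, 3.91 and 2.19 CPM in the shControl libraries. CYP4F12, a fatty acid hydroxylase, measured 12.6, 8.71 and 15.1 CPM in the shRNF213 libraries, against 2.23, 2.54 and 4.33 CPM in the shControl libraries. None of these 3 overlapped between groups, and the changes were 1.94, adjusted p = 0.0303 for CCDC170, 2.81, adjusted p = 0.0248 for RTN1 and 2.01, adjusted p = 0.0248 for CYP4F12. Genes of the CYP4F family are close copies of one another, so the counting may have shared their reads; CYP4F3 was at 0.92, adjusted p = 0.126 and CYP4F11 at 0.41, adjusted p = 0.268. CYP4F12 was the called member of 14 tested arachidonate and CYP4F genes, with a median of 0.20. RTN1 was the called member of 5 tested neuroendocrine and neuronal markers, of which SCG2 measured 169, 68.0 and 198 CPM with shRNF213, against 229, 91.3 and 144 CPM with shControl. ENO2 ran from 28.5 to 167 CPM and NCAM1 from 12.4 to 51.5 CPM, with overlapping groups, while CHGA stayed at or below 0.595 CPM and INSM1 had no counts in the 6 libraries.

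AMIGO2, a leucine-rich repeat adhesion protein, measured 54.5, 123 and 51.7 CPM in the shRNF213 libraries, against 17.8, 58.8 and 15.3 CPM in the shControl libraries. CHRNA9, a nicotinic acetylcholine receptor subunit, measured 10.8, 8.24 and 7.97 CPM in the shRNF213 libraries, against 3.87, 1.94 and 3.45 CPM in the shControl libraries. TREM1, a receptor best known from myeloid cells, measured 23.6, 22.0 and 14.2 CPM in the shRNF213 libraries, against 7.73, 7.66 and 7.17 CPM in the shControl libraries. AMIGO2 overlapped because shControl 2 was above shRNF213 1 and 3, and the other 2 genes did not overlap. The long noncoding RNA LYPLAL1-DT measured 9.90, 15.01 and 4.90 CPM in the shRNF213 libraries, against 2.23, 2.06 and 1.77 CPM in the shControl libraries. The changes were 1.47, adjusted p = 0.0248 for AMIGO2, 1.58, adjusted p = 0.0441 for CHRNA9, 1.38, adjusted p = 0.0323 for TREM1 and 2.18, adjusted p = 0.0305 for LYPLAL1-DT. LYPLAL1-DT overlaps LYPLAL1, which held more counts.

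The other lower genes of the named set were membrane and nuclear proteins. TM4SF1, a tetraspanin-like surface protein of carcinomas and endothelium, measured 553, 331 and 401 CPM in the shRNF213 libraries, against 1092, 687 and 917 CPM in the shControl libraries. OLR1, a scavenger receptor for oxidized lipoprotein, measured 12.02, 1.71 and 5.37 CPM in the shRNF213 libraries, against 30.6, 8.77 and 18.1 CPM in the shControl libraries. NR4A3, an immediate-early nuclear receptor, measured 45.2, 14.9 and 23.9 CPM in the shRNF213 libraries, against 112, 37.3 and 41.9 CPM in the shControl libraries. TM4SF1 did not overlap, while OLR1 and NR4A3 did because replicate 1 was high in both groups. PLEKHA4 measured 133, 69.7 and 97.5 CPM in the shRNF213 libraries, against 234, 152 and 167 CPM in the shControl libraries, and SVIL, which encodes the actin-binding protein supervillin, measured 48.04, 43.9 and 52.1 CPM in the shRNF213 libraries, against 105, 62.9 and 106 CPM in the shControl libraries, both without overlap. The changes were -1.08, adjusted p = 0.0248 for TM4SF1, -1.77, adjusted p = 0.0248 for OLR1, -1.15, adjusted p = 0.0248 for NR4A3, -0.90, adjusted p = 0.0303 for PLEKHA4 and -0.89, adjusted p = 0.0486 for SVIL.

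The other called higher genes included enzymes and transporters of intermediary metabolism. AOX1, aldehyde oxidase, rose by 1.30 on the log2 scale, PC, pyruvate carboxylase, by 0.84, the monocarboxylate transporter SLC16A7 by 0.85 and the mitochondrial serine transporter relative SFXN3 by 0.84. Secreted or membrane products included CP, the copper carrier ceruloplasmin (1.25), CPE, a prohormone-processing carboxypeptidase (1.05), SPON1 (1.15), FGFRL1, a fibroblast growth factor receptor without a kinase (1.11), SLITRK6 (1.31) and IL13RA2, the decoy receptor of interleukin 13 (1.66). TNFRSF21, death receptor 6, rose by 0.67 as the called member of 25 tested TNF family genes. DIO2, the deiodinase that activates thyroid hormone, rose by 2.49, the phospholipid flippase ATP8A1 by 1.30 and the chloride-proton exchanger CLCN4 by 1.06. GASK1B (2.77), EXPH5 (2.38), SH3RF2 (1.31), ALS2CL (0.89), LMO7 (0.85), SEL1L3 (0.73), SEZ6L2 (0.71), GALNT10 (0.71), CSMD3 (2.92), the noncoding AC138646.1 (2.98) and AL033397.1 (2.21), and AL359208.1 (1.89) completed the 45. The values of the scarcest are imprecise: AC138646.1 had 4, 4 and 5 counts in the shControl libraries, and CSMD3 had 4 in shControl 3. The other lower genes included C2 (-1.99), C1QL1 (-1.81), PIP4K2A, a phosphoinositide kinase (-0.83), and FAM114A2 (-0.76).

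Of the 66 called genes, 31 overlap another gene and 14 overlap one that holds more than 10% of their own counts. C2 had 573 counts over the 6 libraries and shares its strand with CFB, which had 132775 counts and was at -0.10 on the log2 scale. AL033397.1 had 305 counts and lies on the strand of GCLC, which had 39067. FAM114A2, CP and LYPLAL1-DT overlap genes of the opposite strand with more counts than their own. The values of these 5 are uncertain, since the counting could have split or shared their reads. The same limit holds for the rest of the 14. Among them, RSAD2 had 32323 counts and overlaps CMPK2 of the opposite strand, which had 14890. GALNT10 had 15777 counts and shares its strand with MFAP3, which had 9630.

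The promoters of the changed genes were read for a few short motifs, chosen after the calls were seen. RefSeq (GRCh38.p14) gave a window from 250 bases before to 50 after the gene start for 12 of the 21 lower genes, 34 of the 45 higher genes and 10767 of the tested genes, taking the first window listed for each symbol. IFIT2, OASL and CCL5 had no window, so only 2 of the 5 lower interferon-stimulated or chemokine genes, RSAD2 and CXCL11, could be read. The interferon-stimulated response element core (GAAA, any 2 bases, GAAA), read on both strands like the other motifs, was in 0 of 12, 0 of 34 and 3.16% of these windows, and the kappaB motif (GGG, any 2 bases, TTTCC) was in 0 of 12, 0 of 34 and 2.13%. The AP-1 motif TGANTCA, whose reverse complement has the same form, was in 1 of 12 lower (8.33%), 5 of 34 higher (14.7%), 4.87% of tested and 7.76% of all 27305 windows of the table. These letters are a description of the windows and do not mark a bound site. The 6 AP-1 matches are shown because the genes that hold them include the largest change of the comparison and 1 of the alarmins; capitals mark the match, and 11 bases are given on either side, 5′ to 3′ on the strand of the gene.
SLC6A14 (chrX:116436379-116436407, plus strand): ctacacagctcTGAGTCAaaggctgtcag
IL1A (chr2:112784488-112784516, minus strand): gcgaagaagacTGACTCAggcttaagctg
AMIGO2 (chr12:47080165-47080193, minus strand): gttgggcatctTGACTCAaggaccagagt
DIO2 (chr14:80211475-80211503, minus strand): cacaagggaacTGACTCAggaggcagaga
SLITRK6 (chr13:85799422-85799450, minus strand): ggcttaaaggcTGAGTCAaaagccaagaa
CXCL11 (chr4:76036140-76036168, minus strand): ggaaaggtgcaTGACTCAaagagggaaat

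The first 5 belong to genes that rose (3.02, 0.99, 1.47, 2.49 and 1.31 for SLC6A14, IL1A, AMIGO2, DIO2 and SLITRK6), and the last to CXCL11, which fell (-1.26). The match began 216 bases before the gene start in SLC6A14, 12 before it in IL1A, 231 before it in AMIGO2, 20 before it in SLITRK6 and 87 before it in CXCL11, and 12 after it in DIO2. These starts are those of the RefSeq window. The counted gene begins farther upstream in DIO2 (position 80387757), SLITRK6 (85806683) and CXCL11 (76041415), so their windows lie within the counted gene. It also begins farther upstream in IL1A (112784590), so the printed IL1A match, but not its whole window, lies within the counted gene. IL1A held 2 matches in its window and the other 5 genes held 1 each. IL33, TGFA and SERPINH1 had a window with none of the 3 motifs.

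Growth and sterol genes differed in size from replicate to replicate. Of 44 tested cell cycle genes 0 were called, although 43 were positive and the median was 0.78. The median log2 ratio of the list was 0.32, 0.06 and 1.81 in replicates 1, 2 and 3, so most of the size came from replicate 3. Its summed level was 2052, 670.4 and 1940 CPM with shRNF213, against 1656, 657 and 729 CPM with shControl, with shControl 3 low beside its partner. The 2 members of lowest p were CCNE1, a cyclin of the G1 to S transition (0.77, adjusted p = 0.117), and CENPF, a kinetochore protein (1.02, adjusted p = 0.219). The part of growth state in the called genes was not tested.

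Cholesterol synthesis and uptake genes ran the other way, with 0 of 27 called, 23 negative and a median of -0.47. The median log2 ratio was 0.15, -0.37 and -1.30 in replicates 1, 2 and 3. Summed over all 28 list members, they came to 1380, 1684 and 1257 CPM with shRNF213, against 1280, 2117 and 2776 CPM with shControl. The spread thus lay within shControl. INSIG1, the sterol-sensing brake on this pathway, measured 9.22, 12.2 and 9.93 CPM with shRNF213, against 13.2, 52.9 and 81.0 CPM with shControl, and was lower in each pair without passing (-1.94, adjusted p = 0.099). SC5D, an enzyme of the pathway, was second by p (-0.52, adjusted p = 0.18). All 13 mitochondrially encoded genes were positive with 0 called and a median of 0.23, led by MT-ND5 (0.33, adjusted p = 0.269) and MT-ATP6 (0.30, adjusted p = 0.314). Mitochondrial transcripts took 2.02%, 1.71% and 2.21% of the counts with shRNF213, against 1.61%, 1.71% and 1.75% with shControl.

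**Figure D4:**
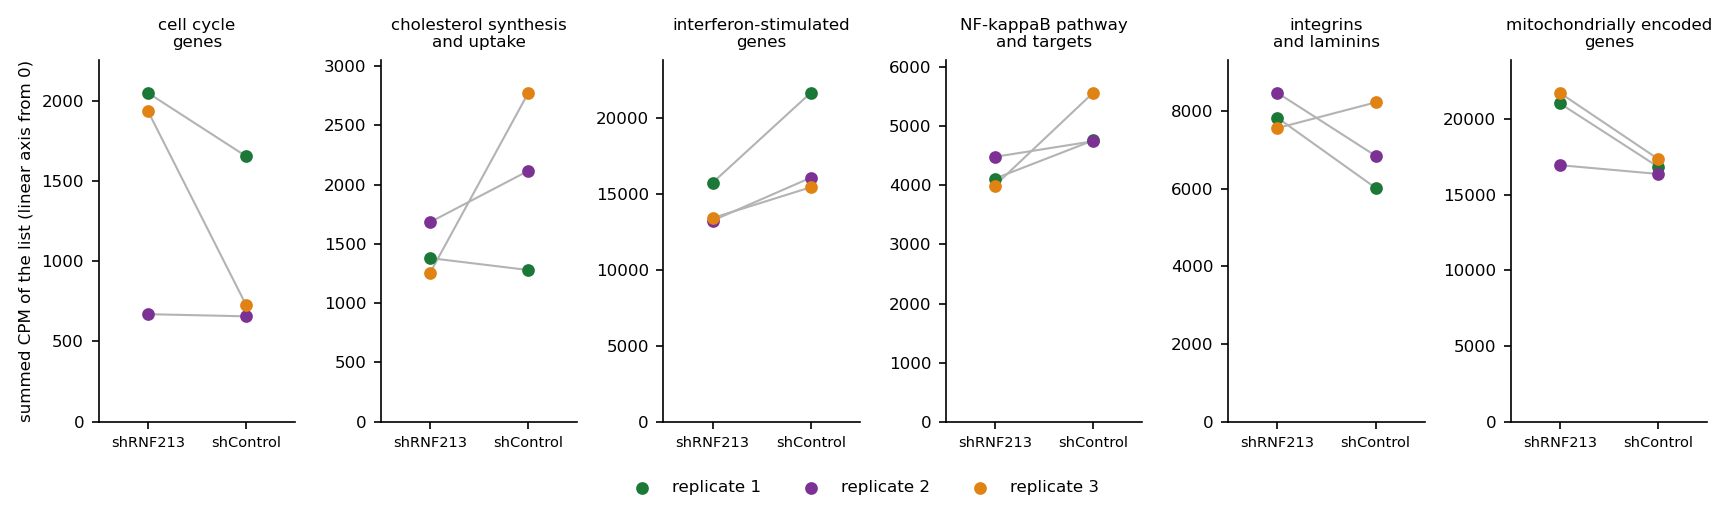
Summed CPM of all members of 6 gene lists in each KKU-100 library on linear axes from 0, shRNF213 left and shControl right, replicates joined. The sums include members that were not tested. The integrin and laminin sum is higher with shRNF213 in replicates 1 and 2 and lower in replicate 3. The interferon-stimulated sum is lower with shRNF213 in each pair (15716, 13225 and 13396 CPM, against 21637, 16049 and 15421 CPM), while the cell cycle and cholesterol sums differ mostly in replicate 3.

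Several lists on signalling and cell state had no called member. Among 35 TGF-beta and BMP genes the lowest p belonged to the receptor TGFBR2 (0.79, adjusted p = 0.0672) and to ID3, a BMP target (-0.95, adjusted p = 0.0859). TGFBR2 measured 333, 383 and 296 CPM with shRNF213, against 151, 232 and 206 CPM with shControl, and ID3 measured 14.5, 14.5 and 11.46 CPM with shRNF213, against 25.4, 22.2 and 30.9 CPM with shControl, both without overlap. Among 27 Wnt genes the lowest p belonged to the receptor FZD5 (-0.82, adjusted p = 0.0782) and to RNF43, a ligase that removes Wnt receptors (2.00, adjusted p = 0.114). Notch genes (0 of 20) were led by HES4 (-0.61, adjusted p = 0.159) and the receptor NOTCH3 (0.96, adjusted p = 0.168), and YAP and TEAD targets (0 of 28) by NUAK2 (-0.80, adjusted p = 0.181) and RBMS3 (0.78, adjusted p = 0.183). Hypoxia and glycolysis genes (0 of 37) were led by CA9 (-1.75, adjusted p = 0.155) and the pyruvate kinase PKM (0.52, adjusted p = 0.184), and angiogenic ligands (0 of 16, median -0.23) by the ephrin EFNB2 (1.20, adjusted p = 0.104) and PDGFC (0.51, adjusted p = 0.108).

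Epithelial junction genes (0 of 28, median 0.16) included the desmosomal cadherin DSG2 (0.55, adjusted p = 0.201). Mesenchymal and EMT regulator genes (0 of 21, median -0.10) were led by LUM, which did not pass 0.768 CPM in any library (2.55, adjusted p = 0.0862), and the N-cadherin gene CDH2 (0.84, adjusted p = 0.106). CDH2 measured 47.8, 45.7 and 44.4 CPM with shRNF213, against 18.2, 31.7 and 29.1 CPM with shControl, without overlap. Among 11 keratins, KRT17 measured 5.97, 1.36 and 2.09 CPM with shRNF213, against 57.5, 6.54 and 3.72 CPM with shControl, with shControl 1 far above the other libraries (-2.24, adjusted p = 0.0734), and KRT6B was second (-1.77, adjusted p = 0.164). S100 genes (0 of 10, median 0.42) were led by S100A9, a subunit of calprotectin (1.52, adjusted p = 0.0624), and S100A16 (0.50, adjusted p = 0.168). Biliary and hepatic transcription factors (0 of 17) were led by SOX9 (-0.51, adjusted p = 0.119) and EHF (0.79, adjusted p = 0.151), and the biliary markers (0 of 8) by SOX9 and KRT7 (-0.56, adjusted p = 0.189).

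Stress and metabolic lists had no called member either. NRF2 targets (0 of 29, median 0.13) had 23 positive and 6 negative members. Their median log2 ratio was 0.31, -0.006 and 0.07 in replicates 1, 2 and 3, so most of the size came from replicate 1. The list was led by the aldo-keto reductase AKR1B10 (1.25, adjusted p = 0.0624) and SLC7A11 (0.72, adjusted p = 0.0634). ATF4 response genes (0 of 26, median 0.0039) were led by STC2 (0.63, adjusted p = 0.12) and DDIT3, which encodes CHOP (-0.57, adjusted p = 0.142). Targets of p53 (0 of 30) were led by FDXR (-0.65, adjusted p = 0.142) and CCNG1 (0.54, adjusted p = 0.147), and fatty acid and lipid droplet genes (0 of 34) by the triglyceride lipase PNPLA2 (0.53, adjusted p = 0.115) and LPIN2 (0.43, adjusted p = 0.148). MHC class I presentation genes (0 of 21, median -0.01) were led by the peptidase ERAP1 (0.34, adjusted p = 0.273) and HLA-E (-0.30, adjusted p = 0.279), and immune checkpoint ligands (0 of 12) by CD274, which encodes PD-L1 (-0.69, adjusted p = 0.139), and CD47 (0.33, adjusted p = 0.268). Replication-dependent histone genes (0 of 22) had a median of -0.11 and were led by HIST1H2BD (-0.40, adjusted p = 0.163) and HIST1H2BC (0.42, adjusted p = 0.269). Retrovirus-derived host genes (0 of 10) had a median of 0.12 and were led by PNMA1 (-0.31, adjusted p = 0.224) and PNMA2 (0.51, adjusted p = 0.244).

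The effect in KKU-100 was set against the mean effect in HuCCT1 and YSCCC in 1 fit of all 18 libraries. The difference passed the threshold for 324 of 19143 genes (1.69%), 213 with a higher value in KKU-100 (1.11%) and 111 with a lower one (0.58%). It included 25 of the 45 higher genes and 11 of the 21 lower genes, which were chosen for their size in KKU-100. The count was 188 without KKU-100 replicate 1 and 703 without replicate 2, and 0 without the block, where 1011 genes had an unadjusted p under 0.05. RNF213 did not differ detectably (difference 0.06, adjusted p = 0.982). By the paired edgeR test within each line, it was not called in HuCCT1 (log2 fold change -0.89, SE 0.18, adjusted p = 0.136). It was called in YSCCC (-1.16, SE 0.13, adjusted p = 0.000307). Line and medium differ together, so their parts in a difference cannot be told apart.

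SLC6A14, IL33 and CCDC170, which rose in KKU-100, were scarce in the other lines. On the 18-library scale, SLC6A14 lay between 17.9 and 265 CPM in KKU-100, against 0.204 to 3.24 CPM in HuCCT1 and 1.07 to 2.66 CPM in YSCCC. IL33 lay between 2.93 and 68.6 CPM in KKU-100, against 0 CPM in all HuCCT1 libraries and at most 0.152 CPM in YSCCC, so no effect could be read there. CCDC170 was likewise at or below 0.205 CPM in the other lines. ANPEP lay between 147 and 357 CPM in HuCCT1 but between 0.246 and 0.827 CPM in YSCCC, where its effect was imprecise (SE 0.45). TGFA was expressed in each line, with a median of 25.1 CPM in KKU-100, 143 CPM in HuCCT1 and 50.6 CPM in YSCCC. Its log2 fold change was 1.73 in KKU-100, -0.03 in HuCCT1 and -0.25 in YSCCC, and the difference of 1.87 passed (SE 0.16, adjusted p = 0.000244). For SLC6A14 the fold changes were 3.02 in KKU-100, 0.74 in HuCCT1 and -0.04 in YSCCC, with a difference of 2.67 (SE 0.31, adjusted p = 0.00227).

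SERPINH1 fell in each line: -1.46 in KKU-100, -0.87 in HuCCT1 (adjusted p = 0.0272) and -1.87 in YSCCC (adjusted p = 4.08e-05), with a difference of -0.08 that did not pass (adjusted p = 0.906). IFIT2 was at -1.41 in KKU-100, -0.70 in HuCCT1 (adjusted p = 0.0748) and -0.23 in YSCCC (adjusted p = 0.145), and its difference of -0.94 passed (adjusted p = 0.00973). The differences of OASL (adjusted p = 0.102) and RSAD2 (adjusted p = 0.1) did not pass. CCL5 differed by -1.91 (SE 0.38, adjusted p = 0.024), a call that was lost without KKU-100 replicate 1. Of the 45 higher genes, 34 were tested in YSCCC, where 7 rose and 4 fell, against a background of 3.69% higher and 4.56% lower. In HuCCT1 32 were tested and 0 passed higher, in a line where 0.114% of genes rose. Of the 21 lower genes, 5 of 20 tested fell in YSCCC, among them RNF213, the target of the hairpin, and 1 of 20 tested fell in HuCCT1 (0.0254% of all genes), that gene being SERPINH1. The 4 that went opposite ways were SH3RF2, CPE, SFXN3 and GALNT10. The 7 that rose in YSCCC as well were CP, CSMD3, CYP4F12, AMIGO2, TNFRSF21, EXPH5 and SLC16A7.

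**Figure D5:**
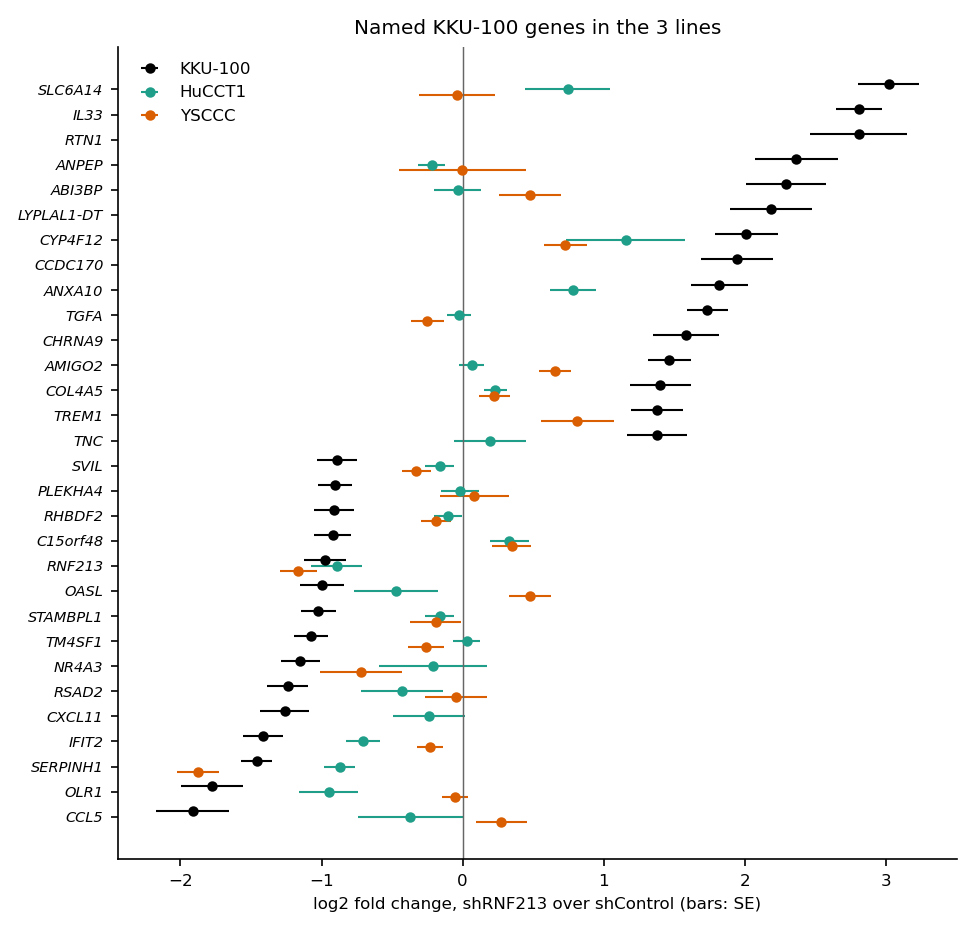
Log2 fold change of shRNF213 over shControl with its SE in KKU-100, HuCCT1 and YSCCC for the 15 highest and 15 lowest called KKU-100 genes averaging 5 CPM or more; a line with no point did not test the gene. SERPINH1 and RNF213 are negative in all 3 lines, while TGFA, SLC6A14 and ABI3BP stand apart from the other lines.

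By the difference alone, further genes came forward that had not passed in KKU-100 by itself. PLAU differed by 2.03 (adjusted p = 0.00646), with -0.59 in YSCCC, where it fell (adjusted p = 0.00595). S100A9 measured 36.5, 12.01 and 25.8 CPM with shRNF213, against 7.14, 5.12 and 12.8 CPM with shControl, and differed by 1.88 (adjusted p = 0.0069). NEDD9, a scaffold protein of focal adhesions, measured 14.5, 14.4 and 11.55 CPM with shRNF213, against 97.0, 23.2 and 27.9 CPM with shControl, with shControl 1 far above the rest, and differed by -1.63 (adjusted p = 0.0187). ANGPTL4, an inhibitor of lipoprotein lipase, measured 42.6, 90.9 and 45.1 CPM with shRNF213, against 97.9, 106 and 56.3 CPM with shControl. It was at -0.58 in KKU-100 and at 1.75 in YSCCC, where it rose (adjusted p = 0.00127), and differed by -1.53 (adjusted p = 0.0198). DOCK8 was at -0.87 in KKU-100 and rose in YSCCC (1.11, adjusted p = 0.00573), and SBK1 was at -0.77 in KKU-100 and rose in YSCCC (0.82, adjusted p = 0.00852). NT5M, DEPP1 and TRNP1 differed by -1.64, -1.44 and -1.43 with no change past the threshold in either other line. The differences of DEPP1 and DOCK8 were lost without KKU-100 replicate 1, and that of DEPP1 also without replicate 3.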

How the data were processed

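Polyadenylated RNA (TruSeq, 750 ng of total RNA) was sequenced in 18 libraries. Per the file headers, the deposited values used here are raw counts per gene and TPM. Per the submitters' processing notes, the authors used DESeq2 1.34.0, HTSeq 0.6.1p1 and StringTie 2.1.6 beside STAR 2.5.1b, FastQC 0.11.9 and Picard 1.139, with the build GRCh38. The sources used here do not give what each tool did, any filter or the use of strand. TPM served for levels per length, and tests used the counts.

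The 6 KKU-100 libraries were fitted with edgeR 4.0.16 under R 4.3.3 (TMM factors, filterByExpr with a minimum count of 10 and minimum total of 15, quasi-likelihood F test, replicate number as block). Benjamini-Hochberg adjustment of the two-sided p-values ran over all genes tested, and a gene with an adjusted p below 0.05 is called. CPM uses TMM-scaled library sizes. A fit of all 18 libraries, with line by replicate as block and 1 hairpin effect per line, gave the difference between KKU-100 and the mean of the other lines. Over 10060 genes (mean log2 CPM above 3), deviations from the group means of same-numbered KKU-100 libraries correlated at 0.729, 0.599 and 0.407. Other combinations lay at -0.555 to 0.12, and the minimum set for pairing was 0.1. The libraries shRNF213 2 and shControl 3, at 0.12, thus passed that minimum without sharing a number. Deviations from a group mean cancel out within the group, so positive values of same-numbered libraries go with negative values elsewhere. The check used the libraries that were then fitted, so it cannot show separately that they were cultured together.

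Genes, 47 gene lists and motifs were chosen with earlier results of these data known. Named genes were RNF213 and RNF213-AS1, the 15 highest and 15 lowest called genes averaging 5 CPM or more with the same sign in 3 pairs, called members of lists, the 2 members of lowest p of lists with none, and up to 8 genes per direction by the difference between lines; a few genes that the rule names are not reported here. Other genes named with values are members of these lists chosen after their values were seen. Alternatives were DESeq2 1.42.0 and its size factors, limma-voom (limma 3.58.1), other filters, no block, and each replicate left out. The scripts were tested on simulated counts. Genes with few counts are imprecise at these depths, and the protocols name no molecular identifiers to mark PCR copies.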

Additional observations from a re-analysis of the deposited data

Results flagged for a closer look

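In 28 genes the hairpin effect in KKU-100 differed from the mean effect in HuCCT1 and YSCCC by edgeR's test of the difference, adjusted over 19143 genes; each value is KKU-100 minus the other lines on the log2 scale. These are genes named for their size in KKU-100, as called members of a list or for the difference itself, and tested in HuCCT1 and YSCCC. KKU-100 was higher for SLC6A14 (2.67), ANPEP (2.37), ABI3BP (2.07), SH3RF2 (2.06), PLAU (2.03), S100A9 (1.88), TGFA (1.87), AOX1 (1.81), COL4A5 (1.16), AMIGO2 (1.105), ITGB4 (1.098), SEMA3C (0.99) and NRP1 (0.84). It was lower for RHBDF2 (-0.76), STAMBPL1 (-0.84), PLEKHA4 (-0.94), IFIT2 (-0.94), TM4SF1 (-0.96), OLR1 (-1.23), C15orf48 (-1.26), TRNP1 (-1.43), DEPP1 (-1.44), SBK1 (-1.48), DOCK8 (-1.52), ANGPTL4 (-1.53), NEDD9 (-1.63), NT5M (-1.64) and CCL5 (-1.91). Of these, CCL5, DEPP1, DOCK8, ITGB4, NRP1 and STAMBPL1 lost the call without KKU-100 replicate 1, and DEPP1 also without replicate 3. Without the replicate block none of the 28 kept the call. AMIGO2 also rose in YSCCC (log2 fold change 0.65, adjusted p = 0.0042 by the paired edgeR test within that line). ANPEP was at or below 0.827 CPM in YSCCC, so its effect there was imprecise (SE 0.45). No group held enough libraries for a test of a single outlying library.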

How the results depend on the processing

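The count of called genes (66) was 2 without the replicate block, 418 with DESeq2 and the block, 193 with no filter on low counts, 32 with a minimum mean of 5 CPM, and 846 in the fit of all 18 libraries; leaving out a replicate gave 9 to 420. The pairing thus decides most calls: of the 66, SERPINH1 and SLC6A14 were called without it. It was 65 with DESeq2 size factors and 72 with limma-voom. RNF213 fell by 0.97 on the log2 scale with the block; without it the change was -0.98 (adjusted p = 0.362), with a minimum mean of 5 CPM -0.98 (adjusted p = 0.0609), and with a replicate left out -1.15 to -0.87. The count for the difference between lines (324) was 0 without the block (1011 at an unadjusted p under 0.05), 336 with DESeq2 size factors, 340 with the 5 CPM minimum, and 188 to 703 with a KKU-100 replicate left out. Why these counts moved was not tested. Of the 65 other called genes, 63 lost their call without the block, 22 without replicate 1, 1 without replicate 2 and 58 without replicate 3, and none changed sign under any setting run. The 3 replicates per group and 1 hairpin limit the precision, and genes under 5 CPM rest on few counts.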
